A study of Homo sapiens with 3 samples.

Results

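The genes described here are the core of the integrated stress response outside the kinase PERK. They are 3 kinases of the translation initiation factor eIF2 (EIF2AK1, EIF2AK2 and EIF2AK4), their substrate EIF2S1, the 5 subunits of the exchange factor eIF2B (EIF2B1 to EIF2B5) and the phosphatase subunit PPP1R15B. They were picked by name, with earlier results of these data known, and all 10 were found among the 58243 genes in the files. The study examined LoVo cells, a human colorectal carcinoma line labelled as epithelial cells from colon, by RNA sequencing. The line was built to express a short hairpin RNA against HRD1, the ubiquitin ligase of endoplasmic reticulum quality control that SYVN1 encodes, from a doxycycline-inducible (Tet-On) system. The 3 groups were cells given 1 µg/ml doxycycline for 0, 3 and 5 days, with 1 library each, to follow the effect of HRD1 loss on gene expression. All 3 groups carried the hairpin construct, and no library of doxycycline-treated cells without the hairpin was analysed here, so the drug, the time in culture and the knockdown cannot be told apart. The labels do not say whether the line is a clone.

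The factor eIF2 carries the initiator methionyl-tRNA to the ribosome, and eIF2B reloads eIF2 with GTP after each round of initiation. Under stress, a kinase phosphorylates the alpha subunit of eIF2, which then binds eIF2B and blocks it, so that general translation slows while messages such as ATF4 are translated. PPP1R15A and PPP1R15B guide protein phosphatase 1 to remove that phosphate. This control acts on proteins and was not measured here, where the readout is transcript abundance.

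The 3 libraries held 21308785 to 25754188 gene reads, of which 87.6% to 89.2% were uniquely placed and 5.59% to 6.68% were intronic. Ratios between libraries are log2 ratios of total gene reads after TMM normalisation, which sets the bulk of genes level across libraries. Each ratio has an exact conditional (Clopper-Pearson) 95% interval that covers counting error only, because 1 library per time gives no measure of variation between cultures and no p-value. SYVN1, the targeted gene, had 1212, 650 and 709 reads at day 0, 3 and 5, and its log2 ratio was -0.88 (interval -1.02 to -0.74) at day 3 over day 0 and -1.05 (-1.19 to -0.92) at day 5 over day 0. Of the markers of the labelled cell type, KRT8, KRT18 and KRT19 were abundant, but EPCAM stayed at 0.656 to 0.742 TPM, CDH1 stayed at or under 0.241 TPM, and 0 of 7 intestinal markers reached 1 TPM in each library, with CDX1 and CDX2 at 0 reads. Of 5 mesenchymal markers, VIM had 3588 to 4130 TPM, FN1, ZEB1 and SPARC had 22.7 to 32.0 TPM, and CDH2 had 0.123 to 0.680 TPM. The summed level of 6 liver and blood transcripts was 0.0946, 0.760 and 27.6 TPM at day 0, 3 and 5, with ALB at 0, 0 and 114 reads, and the part of such RNA in the day 5 ratios was not tested. In a bulk sample, fewer cells of a type and less RNA per cell cannot be told apart.

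Ratios of the 10 transcripts were small where SYVN1 was reduced. EIF2B3, a catalytic subunit of eIF2B, rose at day 3 over day 0, EIF2B4 fell and PPP1R15B rose at day 5 over day 3, and no other member passed the call in any comparison. The PPP1R15B call was not seen in uniquely placed reads (-0.03), while exon-exon reads, which span a splice junction, gave 0.28 with an interval that included 0 (-0.07 to 0.63). With trends on GC content and exon length removed, all 3 calls were lost. A gene was called when its ratio reached 1.2-fold with an interval that excluded 1, among the 12593 genes that averaged 50 reads or more, a minimum that all 10 members passed. At day 3 over day 0, 1 of 10 members was called higher and 0 lower, beside 9.98% and 10.7% of all genes. For day 5 over day 0, 0 members were called in either direction, beside 9.43% of all genes higher and 7.81% lower. At day 5 over day 3, 1 member was called higher and 1 lower, beside 12.4% and 10.9% of all genes. The members' share was therefore near the background or under it in every comparison. At 1.5-fold, 0 members were called in any comparison, while of all genes 1.29% were called higher and 2.53% lower at day 3 over day 0, 1.76% and 1.28% at day 5 over day 0, and 2.29% and 0.961% at day 5 over day 3.

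The members' median log2 ratio was 0.01 at day 3 over day 0, 0.01 at day 5 over day 0 and -0.03 at day 5 over day 3, beside medians of 0.01, 0.01 and 0.00 for all genes. Their median size regardless of sign was 0.0859 at day 3 over day 0, beside 0.150 for all genes. It was 0.120 at day 5 over day 0, beside 0.136, and 0.186 at day 5 over day 3, beside 0.162. The 3 comparisons share libraries, so their ratios are not independent of each other. Without TMM factors, the median of all genes was -0.06 at day 3 over day 0 and 0.07 at day 5 over day 3, and with the authors' TPM it was -0.08 and 0.09. The balance of calls over all genes moved with that choice. Of the genes called at day 3 over day 0, 48.3% were higher under TMM, 24.7% by library totals and 15.4% by TPM. Of those called at day 5 over day 3, 53.2% were higher under TMM, 77.8% by library totals and 82.5% by TPM. Under library totals and under TPM, EIF2B3 at day 3 over day 0 and EIF2B4 at day 5 over day 3 no longer passed, and EIF2AK2 passed as higher at day 5 over day 3.

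**Figure D1:**
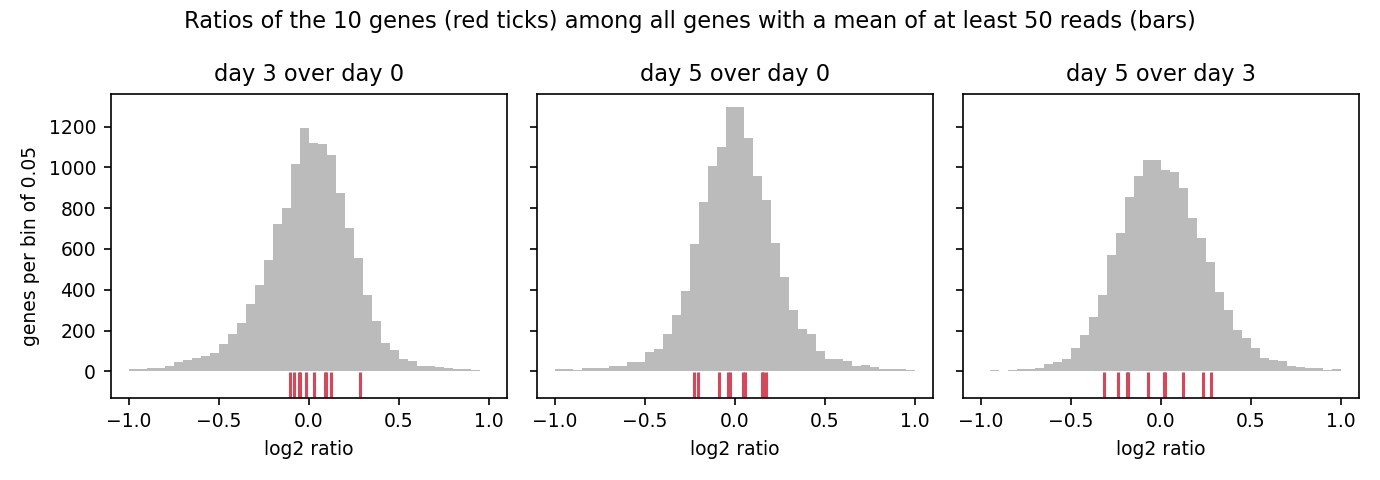
Number of genes (bars, in bins of 0.05) by log2 ratio of TMM-normalised reads in each comparison, over genes averaging 50 reads or more, with the 10 members as red ticks under the bars; 82, 65 and 85 genes lie beyond the axis in the 3 panels from left to right. The members sit in the body of the distribution, between -0.11 and 0.28 at day 3 over day 0, -0.23 and 0.17 at day 5 over day 0, and -0.32 and 0.28 at day 5 over day 3.

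Levels between genes were compared in the authors' TPM, which scales reads by exon length and library. EIF2B1 was the most abundant member in each library, with 162, 162 and 166 TPM at day 0, 3 and 5. EIF2S1 came next with 135, 125 and 148 TPM, and EIF2AK1 after it with 113, 99.9 and 110 TPM. In the middle of the order, EIF2B2 had 93.2, 84.1 and 79.8 TPM, EIF2B5 had 79.3, 77.5 and 74.2 TPM, PPP1R15B had 76.6, 64.9 and 85.5 TPM, and EIF2B3 had 42.5, 48.3 and 44.2 TPM. At the low end, EIF2AK2 had 30.0, 26.0 and 33.0 TPM, EIF2B4 had 34.4, 33.7 and 29.2 TPM, and EIF2AK4 had 37.1, 32.8 and 34.8 TPM. Most neighbours in the order were apart by more than counting error. The exceptions were EIF2B5 with PPP1R15B and EIF2AK4 with EIF2B4 at day 0, EIF2B4 with EIF2AK4 at day 3, and PPP1R15B with EIF2B2, EIF2B2 with EIF2B5 and EIF2AK4 with EIF2AK2 at day 5. Few PPP1R15B reads were uniquely placed, 9.49%, 8.08% and 6.45% at day 0, 3 and 5. Most of its level thus rests on reads that cannot be assigned to it alone, and its place in the order is not settled. The order also depends on the length used, since the files count every annotated exon. When exon reads were divided by the length of the principal transcript in GENCODE 29, EIF2B5 ranked second at day 0 and day 3, EIF2B4 sixth or seventh, and EIF2AK2 last in each library, whereas in TPM EIF2B4 was last at day 5. EIF2B4 has 5341 bases of annotated exon against 1792 in its principal transcript.

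**Figure D2:**
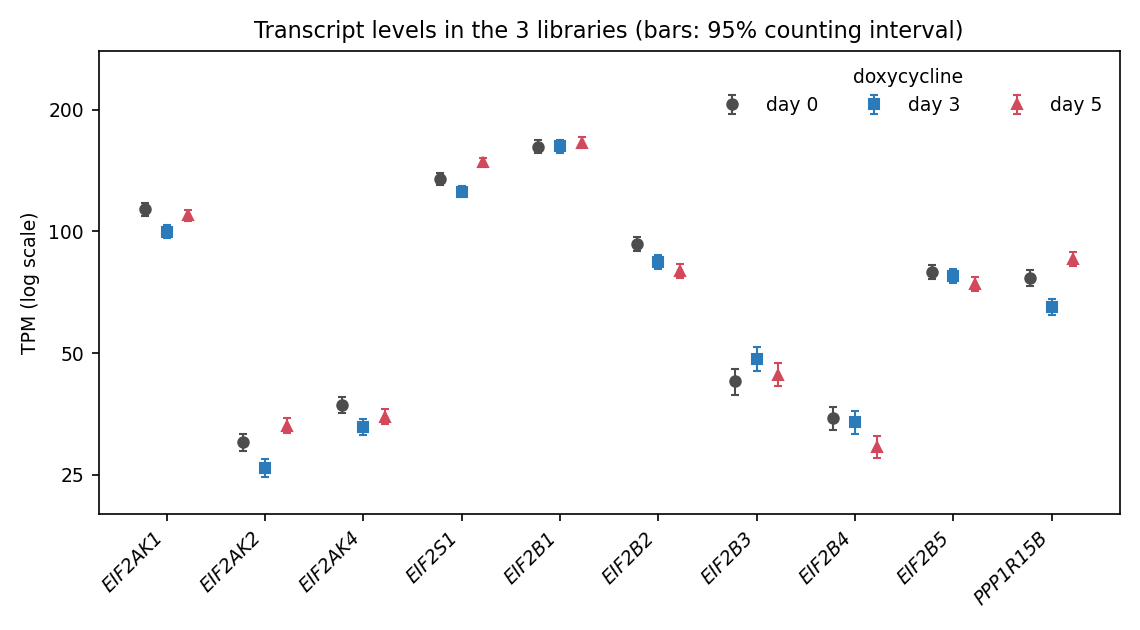
Level of each member in TPM (log axis) in the 3 libraries, day 0 as circles, day 3 as squares and day 5 as triangles, with 95% counting intervals. EIF2B1 is highest at 162 to 166 TPM and EIF2AK2 lies at 26.0 to 33.0 TPM. The PPP1R15B level rests mostly on reads that were not uniquely placed.

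The eIF2 kinases differ in what they sense. EIF2AK1 (chr7:6022244-6059230, minus strand, GRCh38) encodes HRI, the kinase that responds to lack of heme and, through OMA1 and DELE1, to mitochondrial stress. It had 147, 142 and 144 normalised CPM (reads scaled to library size) at day 0, 3 and 5. Its log2 ratio was -0.06 (-0.13 to 0.02) at day 3 over day 0, -0.04 (-0.11 to 0.03) at day 5 over day 0 and 0.02 (-0.05 to 0.09) at day 5 over day 3, so by these reads no difference beyond counting error was detectable. Exon-exon reads, which span a splice junction, gave -0.13 (-0.22 to -0.04) at day 3 over day 0. EIF2AK1 overlaps AIMP2 on the opposite strand by 1591 bases, and no source used here says that the counting used strand.

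EIF2AK4 (chr15:39934146-40035591, plus strand) encodes GCN2, the kinase that responds to uncharged tRNA and stalled ribosomes when amino acids run short. It had 107, 103 and 105 CPM at day 0, 3 and 5, and its log2 ratios of -0.05 (-0.14 to 0.03) at day 3 over day 0 and -0.03 (-0.11 to 0.06) at day 5 over day 0 had intervals that include 0. At day 5 over day 3 it stood at 0.03 (-0.06 to 0.11), and at -0.12 (-0.20 to -0.04) with trends on GC content and exon length removed. Its reads held more intron sequence than those of any other member, with 14.8%, 14.6% and 18.1% of its gene reads in introns at day 0, 3 and 5. The day 5 share, with an exact interval of 16.6% to 19.5%, lay above the day 0 interval of 13.4% to 16.3%. Intron reads made up 6.01%, 5.59% and 6.68% of the whole libraries, and 0.202% to 4.91% of the reads of the other members. EIF2AK4 ends 147 bases before SRP14, a signal recognition particle gene on the opposite strand, and the part of reads from that boundary in the ratios was not tested.

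EIF2AK2 (chr2:37099210-37157065, minus strand) encodes PKR, the kinase that binds double-stranded RNA and that interferon induces. It had 75.2, 71.0 and 83.5 CPM at day 0, 3 and 5, so the day 5 library was the highest. Its log2 ratio was -0.08 (-0.18 to 0.02) at day 3 over day 0, 0.15 (0.06 to 0.25) at day 5 over day 0 and 0.23 (0.14 to 0.33) at day 5 over day 3. The day 5 ratios exceeded counting error but stayed under 1.2-fold. Exon-exon reads gave 0.25 (0.11 to 0.40) at day 5 over day 0 and 0.33 (0.19 to 0.48) at day 5 over day 3, the second past 1.2-fold. Its transcript has a low GC content, 39.6% against a median of 48.8% over all genes, and ratios at day 5 moved with GC content across all genes. With smooth trends on GC content and exon length removed, its log2 ratio was 0.07 (-0.04 to 0.17) at day 3 over day 0, 0.07 (-0.02 to 0.16) at day 5 over day 0 and 0.00 (-0.09 to 0.10) at day 5 over day 3.

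The promoter of EIF2AK2 is shown because it is the member known to be induced by interferon, and its window holds the only match to an interferon-stimulated response element among the members' promoters. Promoters are RefSeq windows on GRCh38.p14 that run from 250 bases before to 50 bases after the annotated start. Of the 10 members, 9 had one or more, 10 windows in all. EIF2AK1 had no window and was not searched. Both strands were searched for GAAANNGAAA, which 3.57% of all 35116 windows hold. The sequence is chr2:37156931-37157230, minus strand, with the match in capitals from base 245.
EIF2AK2: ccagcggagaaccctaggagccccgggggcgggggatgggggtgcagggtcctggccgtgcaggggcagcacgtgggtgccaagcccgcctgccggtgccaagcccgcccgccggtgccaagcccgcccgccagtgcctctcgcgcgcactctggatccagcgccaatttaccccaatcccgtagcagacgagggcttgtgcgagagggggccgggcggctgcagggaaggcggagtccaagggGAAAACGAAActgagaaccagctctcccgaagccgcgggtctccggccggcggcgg

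The interferon-stimulated list gives the setting for EIF2AK2. Of 18 genes, 15 averaged 50 reads or more. At day 3 over day 0, 1 was called higher and 0 lower, at day 5 over day 0, 0 were higher and 2 lower, and at day 5 over day 3, 0 were higher and 2 lower, with median log2 ratios of -0.04, 0.00 and 0.03, and of -0.02, 0.00 and -0.04 with trends removed. Shares of all genes called higher and lower, for this list and those that follow, were 9.98% and 10.7% at day 3 over day 0. They were 9.43% and 7.81% at day 5 over day 0, and 12.4% and 10.9% at day 5 over day 3. Medians of all genes were 0.01, 0.01 and 0.00. Of 26 calls among the genes named from this and the other lists, 9 were kept with trends removed and 9 by TPM. ISG15, a ubiquitin-like modifier, rose at day 3 over day 0 with a log2 ratio of 0.38. It fell by 0.36 on the log2 scale at day 5 over day 3. With trends removed these were 0.22 and -0.22, and by TPM 0.25 and -0.24, all under 1.2-fold. IRF9, a subunit of the interferon-activated transcription factor, was called lower at day 5 over day 0, at -0.31, but was -0.05 (-0.40 to 0.29) in exon-exon reads and -0.24 (-0.52 to 0.03) with trends removed. Its day 5 over day 3 ratio was -0.38 by all reads and 0.22 (-1.30 to 1.87) by uniquely placed reads. OAS3, an oligoadenylate synthetase, was called lower at day 5 over day 0 at -0.30, and stood at -0.19 with trends removed, under 1.2-fold. At day 5 over day 0, where EIF2AK2 stood at 0.15 and was not called, 8 of the 15 genes were above 0 and 7 below. Whether interferon had a part in the EIF2AK2 ratios was not tested.

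PERK itself (EIF2AK3), the kinase of the endoplasmic reticulum, had 24.0, 25.4 and 26.7 CPM. By all gene reads its intervals included 0 in each comparison, at 0.08 (-0.10 to 0.26) for day 3 over day 0 and 0.15 (-0.01 to 0.32) for day 5 over day 0. In the latter comparison, exon-exon reads gave 0.27 (0.04 to 0.50), past 1.2-fold. Uniquely placed reads gave 0.06 (-0.13 to 0.26) there, and removal of trends 0.06 (-0.10 to 0.23). In TPM, EIF2AK1 accounted for 56.9%, 56.4% and 55.4% of the summed transcript level of the 4 kinases at day 0, 3 and 5. EIF2AK4 took 18.7%, 18.5% and 17.6%, EIF2AK2 took 15.1%, 14.7% and 16.7%, and EIF2AK3 took 9.38%, 10.4% and 10.3%. Among PERK and 9 regulators of these kinases, 1 was called higher and 0 lower at day 3 over day 0, 2 higher and 0 lower at day 5 over day 0, and 1 higher and 2 lower at day 5 over day 3. The list's median log2 ratios were 0.04, 0.10 and 0.08, and 0.03 in each comparison with trends removed. HSPA5, the chaperone BiP that restrains PERK, rose at day 3 over day 0 (0.72) and at day 5 over day 0 (0.44). It was called lower at day 5 over day 3 (-0.28). That last call was lost by TPM (-0.16), by library totals (-0.20), in uniquely placed reads (-0.26) and in exon reads (-0.25). It was kept in exon-exon reads (-0.41) and with trends removed (-0.30). OMA1, the mitochondrial protease upstream of HRI, was called higher at day 5 over day 0 (0.48) and day 5 over day 3 (0.33), but both calls were lost in other reads. Uniquely placed reads gave 0.077 (-0.39 to 0.55) and -0.19, and exon-exon reads 0.19 (-0.27 to 0.66) and -0.01. TARBP2, a double-stranded RNA-binding protein that inhibits PKR, was called lower at day 5 over day 3 at -0.32, but stood at -0.14 with trends removed, -0.18 in exon-exon reads and -0.19 by TPM, all under 1.2-fold.

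EIF2S1 (chr14:67359997-67386516, plus strand) encodes the alpha subunit of eIF2, the substrate of all these kinases. It had 3823, 3860 and 5176 reads at day 0, 3 and 5, which is 177, 181 and 197 CPM, so day 5 was the highest. The log2 ratio was 0.03 (-0.03 to 0.10) at day 3 over day 0, 0.16 (0.10 to 0.22) at day 5 over day 0 and 0.13 (0.07 to 0.19) at day 5 over day 3, in each case under 1.2-fold. At 39.1% its transcript has the lowest GC content of the members. With trends removed, the log2 ratio was 0.02 (-0.04 to 0.08) at day 5 over day 0 and -0.04 (-0.10 to 0.02) at day 5 over day 3, so the intervals then included 0.

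The other genes of the eIF2 complex and its cycle of methionyl-tRNA delivery numbered 11, all measured. At day 3 over day 0, 1 was called higher and 0 lower, at day 5 over day 0, 1 higher and 0 lower, and at day 5 over day 3, 0 higher and 1 lower, with medians of 0.16, 0.13 and 0.06. With trends removed, the medians were 0.11, 0.02 and -0.06. EIF2S2, the beta subunit of eIF2, had log2 ratios of 0.22 (0.16 to 0.27) at day 3 over day 0 and 0.21 (0.16 to 0.26) at day 5 over day 0. EIF2S3, the gamma subunit, had -0.11 (-0.18 to -0.04) and 0.03 (-0.03 to 0.10) in the same comparisons, and neither passed the call. MCTS1, which with DENR recycles ribosomes and supports reinitiation, was called higher at day 3 over day 0 (0.29) and at day 5 over day 0 (0.38), and both calls were lost with trends removed (0.21 and 0.23). EIF1, which guards start codon choice, was called lower at day 5 over day 3 at -0.28, but stood at -0.24 with trends removed and -0.17 by TPM, under 1.2-fold.

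The subunits of eIF2B are encoded on 5 different chromosomes. EIF2B3 (chr1:44850522-44986722, minus strand) and EIF2B5 (chr3:184135038-184145311, plus strand) encode the gamma and epsilon subunits that make up the catalytic part. EIF2B1 (chr12:123620406-123633766, minus strand), EIF2B2 (chr14:75002911-75012366, plus strand) and EIF2B4 (chr2:27364352-27370486, minus strand) encode the alpha, beta and delta subunits of the regulatory part, to which phosphorylated eIF2 binds. Mutations in any of the subunits cause vanishing white matter disease.

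EIF2B3 had 753, 905 and 945 reads at day 0, 3 and 5, which is 34.9, 42.4 and 36.0 CPM. Day 3 was the highest library, and EIF2B3 was the member with the largest ratio at day 3 over day 0, 1.22-fold, a log2 ratio of 0.28 (0.14 to 0.42). The ratio was 0.05 (-0.09 to 0.19) at day 5 over day 0 and -0.24 (-0.37 to -0.10) at day 5 over day 3. Over the settings tried, the day 3 over day 0 ratio lay between 0.18 and 0.29, and at 0.21 with trends removed it no longer passed 1.2-fold. EIF2B5, its catalytic partner, had 105, 112 and 99.1 CPM. The log2 ratios of EIF2B5 were 0.09 (0.01 to 0.18) at day 3 over day 0, -0.09 (-0.17 to -0.01) at day 5 over day 0 and -0.18 (-0.26 to -0.10) at day 5 over day 3, all under 1.2-fold.

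EIF2B4 had 918, 966 and 954 reads, which is 42.5, 45.2 and 36.3 CPM, so day 5 was the lowest library. Its log2 ratio was 0.09 (-0.04 to 0.22) at day 3 over day 0, -0.23 (-0.36 to -0.09) at day 5 over day 0 and -0.32 (-0.45 to -0.19) at day 5 over day 3. The last is a ratio of 0.804, the only call of a lower member, and with trends removed it was -0.22 (-0.35 to -0.09), no longer past 1.2-fold. EIF2B4 shares 3271 bases with the antisense gene AC074117.1, which had 207, 203 and 263 reads. EIF2B2 had 117, 116 and 102 CPM, with log2 ratios of -0.02 (-0.10 to 0.07) at day 3 over day 0 and -0.20 (-0.28 to -0.13) at day 5 over day 0. The EIF2B2 ratio at day 5 over day 0 was below 0 beyond counting error under each of the 8 alternative settings, between -0.22 and -0.19, and under 1.2-fold in all of them. EIF2B1 had 140, 153 and 145 CPM, with log2 ratios of 0.12 (0.05 to 0.20) at day 3 over day 0 and 0.05 (-0.02 to 0.12) at day 5 over day 0.

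**Figure D3:**
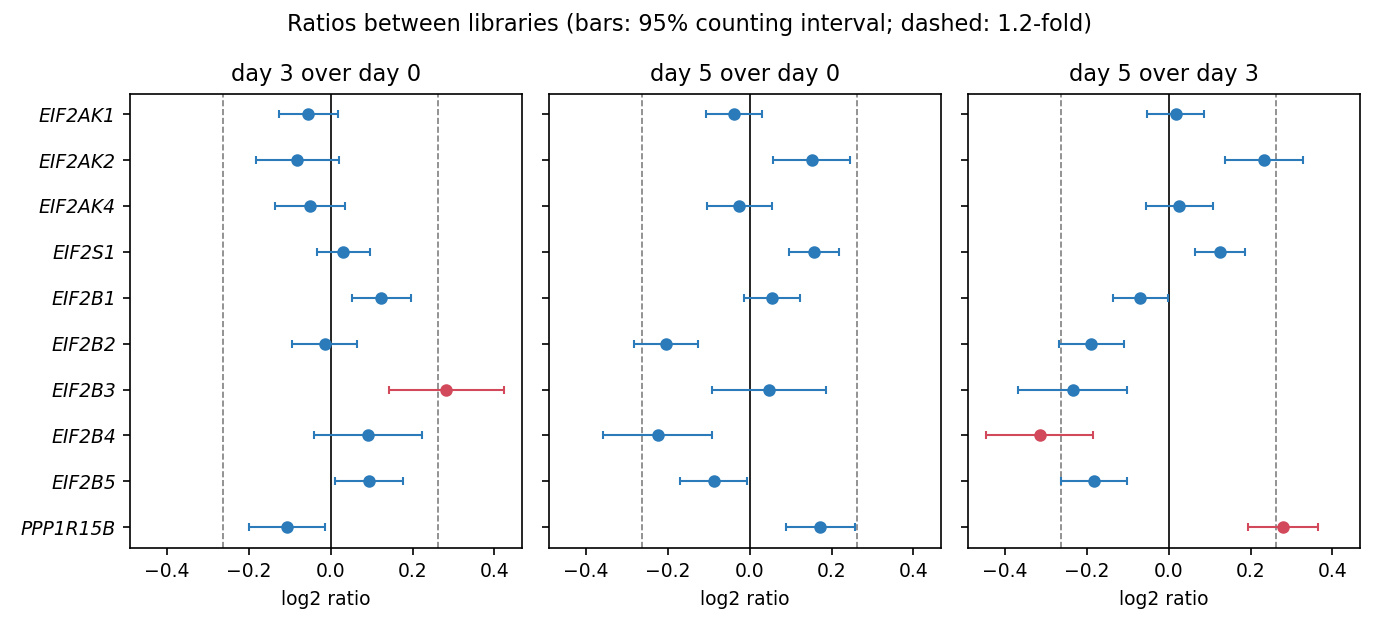
Log2 ratio of TMM-normalised reads for each member in the 3 comparisons, with 95% counting intervals, dashed lines at 1.2-fold in either direction and called members in red. EIF2B3 passes at day 3 over day 0 (0.28), EIF2B4 (-0.32) and PPP1R15B (0.28) pass at day 5 over day 3, and no member passes at day 5 over day 0. For PPP1R15B at day 5 over day 3, uniquely placed reads gave -0.03 and exon-exon reads 0.28 (-0.07 to 0.63).

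Set together, the median log2 ratio of the 5 eIF2B subunits was 0.09 at day 3 over day 0, -0.09 at day 5 over day 0 and -0.19 at day 5 over day 3, beside -0.06, -0.03 and 0.03 for the 3 member kinases. The intervals of all 5 subunits lay under 0 at day 5 over day 3, as did those of 26.1% of all genes. By TPM in that comparison, the intervals of EIF2B1 (0.03), EIF2B2 (-0.08), EIF2B3 (-0.13) and EIF2B5 (-0.06) included 0, and that of EIF2B4 (-0.20) stayed below. The interval of EIF2B1 also included 0 by library totals (0.0053), in uniquely placed, exon and exon-exon reads, and with trends removed. In those settings the other subunits stayed below. By TPM, the median of the subunits at day 3 over day 0 was -0.03 in place of 0.09. The subunits were not equally abundant. In TPM the highest was 4.70, 4.82 and 5.67 times the lowest at day 0, 3 and 5, and per principal transcript length 2.71, 2.39 and 2.79 times. Reads of EIF2S1 over the summed reads of eIF2B give a comparison that needs no scaling between libraries. This ratio was 0.402 at day 0, 0.386 at day 3 and 0.471 at day 5, so that the day 5 value was 1.17 times the day 0 value (1.11 to 1.23) and 1.22 times the day 3 value (1.16 to 1.28), while day 3 was 0.959 times day 0 (0.909 to 1.01). In exon-exon reads the day 5 value was also 1.17 times the day 0 value (1.10 to 1.25). The 2 sides differ in GC content, 39.1% for EIF2S1 and 47.2% to 53.8% for the eIF2B transcripts. With trends removed, the log2 ratio of EIF2S1 minus the mean of eIF2B was 0.09 in place of 0.24 at day 5 over day 0 and 0.12 in place of 0.32 at day 5 over day 3.

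The libraries differed in these trends across all genes, and the part of each trend in a member's ratio was not tested by a further measurement. At day 5 over day 0, the median log2 ratio was 0.14 in the eighth of genes with the lowest GC content and -0.13 in the eighth with the highest, a Spearman correlation of -0.43 over 12487 genes. At day 5 over day 3 these medians were 0.20 and -0.18, a correlation of -0.54. At day 3 over day 0, exon length ran the same way, with 0.16 in the shortest eighth, -0.15 in the longest and a correlation of -0.38. These correlations are across genes, which are not independent. With the trends removed, 0 members were called in any comparison, and the members' median size was 0.0642, 0.0502 and 0.128 at day 3 over day 0, day 5 over day 0 and day 5 over day 3.

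**Figure D4:**
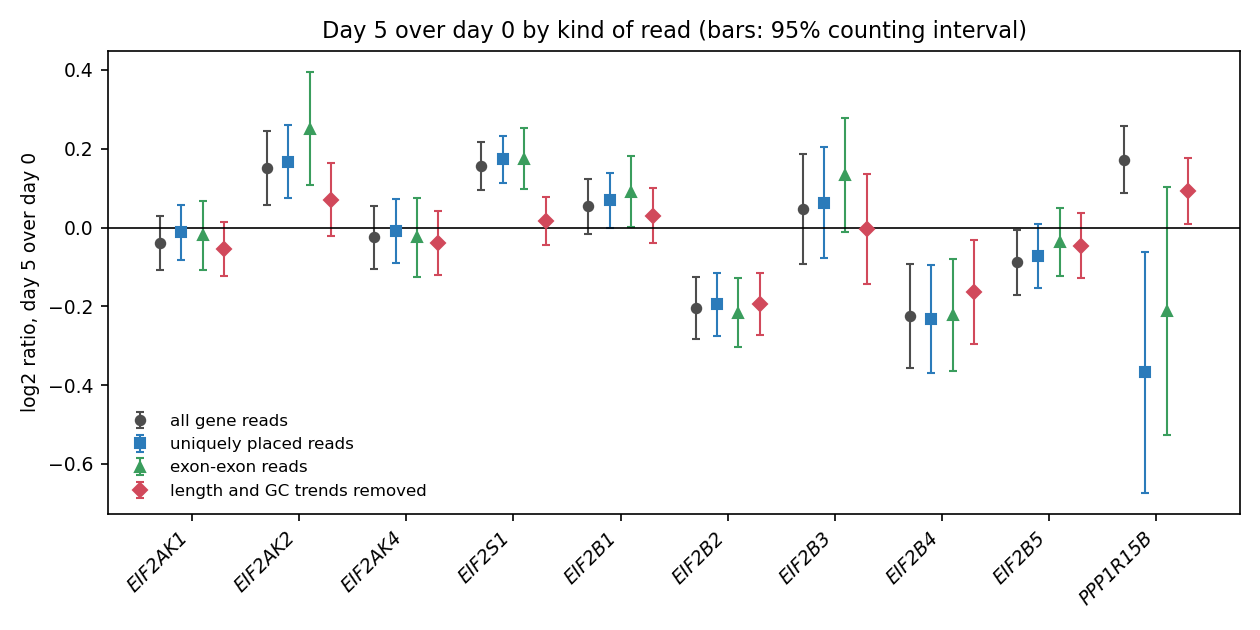
Log2 ratio at day 5 over day 0 for each member from all gene reads (circles), uniquely placed reads (squares) and exon-exon reads (triangles), and with the length and GC trends removed (diamonds), with 95% counting intervals. EIF2B2 stays between -0.22 and -0.19 in all 4, EIF2S1 is at 0.02 with trends removed, and PPP1R15B is at 0.17 by all reads but -0.37 by uniquely placed reads.

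PPP1R15B (chr1:204403387-204411791, minus strand) encodes CReP, the subunit that directs protein phosphatase 1 to phosphorylated eIF2 in unstressed cells. It had 1982, 1819 and 2714 reads at day 0, 3 and 5, which is 91.7, 85.2 and 103 CPM. By these reads its log2 ratio was -0.11 (-0.20 to -0.01) at day 3 over day 0, 0.17 (0.09 to 0.26) at day 5 over day 0 and 0.28 (0.19 to 0.37) at day 5 over day 3, where it was called higher. Few of the reads were uniquely placed, 9.49%, 8.08% and 6.45% in the 3 libraries, and only 404 of the 12593 genes (3.21%) had under 10%. The uniquely placed reads numbered 188, 147 and 175, and gave -0.34 (-0.66 to -0.02) at day 3 over day 0, -0.37 (-0.67 to -0.06) at day 5 over day 0 and -0.03 (-0.35 to 0.30) at day 5 over day 3. The direction at day 5 over day 0 thus turned, and the call at day 5 over day 3 rests on reads that cannot be assigned to PPP1R15B alone. Of its reads that span a junction, 168 of 170, 122 of 123 and 166 of 169 were unique, while of its exon reads that span none, 1.11%, 1.48% and 0.355% were. Over its whole length the gene is overlapped on the other strand by the antisense gene AL606489.1, by 8405 bases, and that gene was given 84, 63 and 83 reads. Exon-exon reads gave -0.49 (-0.84 to -0.15) at day 3 over day 0, -0.21 (-0.53 to 0.10) at day 5 over day 0 and 0.28 (-0.07 to 0.63) at day 5 over day 3. All 3 kinds of read placed PPP1R15B lower at day 3 over day 0, but they overlap, since most uniquely placed reads were also exon-exon reads. The source of the shared reads was not tested.

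Its stress-induced counterpart PPP1R15A (GADD34) had 2704, 3446 and 3873 reads, which is 125, 161 and 148 CPM, higher at day 3 and day 5 than at day 0. PPP1R15A was called higher at day 3 over day 0, with a log2 ratio of 0.37 (0.29 to 0.44), and stood at 0.24 (0.17 to 0.31) at day 5 over day 0. With trends removed these were 0.24 and 0.31, so that day 5 and not day 3 passed 1.2-fold, and by TPM day 3 was 0.23 and did not pass. Among PPP1R15A and the 3 catalytic subunits of protein phosphatase 1, 1 was called higher at day 3 over day 0 and 0 in the other comparisons, with 0 lower in all 3, and the medians were 0.15, 0.19 and -0.05, or 0.15, 0.10 and 0.01 with trends removed.

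The promoters of both phosphatase subunits are shown because PPP1R15B and PPP1R15A bring the same enzyme to eIF2, one in unstressed and the other in stressed cells. Both strands were searched for the C/EBP-ATF composite element, TGATGNAA, to which ATF4 and CHOP can bind and which 3.62% of all windows hold. PPP1R15B (chr1:204411768-204412067, minus strand) was the only member with a match, in capitals from base 24. PPP1R15A (chr19:48872171-48872470, plus strand) had no match to TGATGNAA in its window. The PPP1R15A window does hold the letters tgacgtca, which were not searched for in any window. The lack of a TGATGNAA match therefore does not show that the PPP1R15A promoter has no site for ATF4. The ER stress element, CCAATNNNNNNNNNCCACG, which 0.0769% of windows hold, matched in 0 of the members' windows.
PPP1R15B: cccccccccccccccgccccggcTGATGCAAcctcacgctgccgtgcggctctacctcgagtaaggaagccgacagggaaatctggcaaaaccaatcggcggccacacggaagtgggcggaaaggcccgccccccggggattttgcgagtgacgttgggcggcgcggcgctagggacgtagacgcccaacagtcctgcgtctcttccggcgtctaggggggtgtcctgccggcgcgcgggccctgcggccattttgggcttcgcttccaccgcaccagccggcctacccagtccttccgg
PPP1R15A: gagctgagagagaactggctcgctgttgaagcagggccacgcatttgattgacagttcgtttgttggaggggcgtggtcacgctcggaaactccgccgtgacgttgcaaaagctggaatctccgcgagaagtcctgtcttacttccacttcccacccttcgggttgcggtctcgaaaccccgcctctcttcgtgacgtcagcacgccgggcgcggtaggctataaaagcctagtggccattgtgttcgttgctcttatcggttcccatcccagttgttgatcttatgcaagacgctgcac

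The messages that are translated when eIF2 is phosphorylated, through upstream open reading frames, were counted beside the members. Of ATF4, ATF5, DDIT3 and PPP1R15A, 3 of 4 were called higher at day 3 over day 0, 1 at day 5 over day 0, and at day 5 over day 3, 0 were higher and 1 lower. The list's medians were 0.37, 0.24 and -0.13. With trends removed, 1 of 4 was called higher at day 3 over day 0 and 4 of 4 at day 5 over day 0, and the medians were 0.23, 0.30 and 0.05. By TPM, 1 of 4 was called higher in each of these comparisons. All 4 ratios were above 0 at day 3 over day 0 under each setting tried, but for ATF5 barely so in exon-exon reads, at 0.0010 (-0.26 to 0.27). The ATF5 interval also included 0 in uniquely placed reads, at 0.12 (-0.13 to 0.36), and with trends removed, at 0.07 (-0.08 to 0.22). Which time was higher depended on the setting. ATF4, the transcription factor of the response, was called higher at day 3 over day 0 at 0.38 and stood at 0.25 at day 5 over day 0. DDIT3, which encodes CHOP, was called higher at day 3 over day 0 (0.68) and at day 5 over day 0 (0.40), though uniquely placed reads gave 0.44 and 0.095 and exon-exon reads 0.32 (0.08 to 0.57) and -0.04.

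Genes of other initiation factors were counted beside eIF2B, in a list that also holds the inhibitors EIF4EBP1 and EIF4EBP2 and the helicase EIF4A3. Of the 23 genes in this eIF3 and eIF4 list, 3 were called higher and 0 lower at day 3 over day 0, beside 9.98% and 10.7% of all genes. At day 5 over day 0, 0 were called in either direction, beside 9.43% and 7.81%. At day 5 over day 3, 0 were called higher and 7 lower, beside 12.4% and 10.9%. The medians were 0.15, -0.01 and -0.13, or 0.12, -0.02 and -0.18 with trends removed. EIF3K and EIF3D, subunits of the scaffold eIF3, were called at 0.35 and 0.27 on the log2 scale at day 3 over day 0, and both calls were lost with trends removed (0.22 and 0.21) and by TPM (0.23 and 0.14). EIF3K fell by 0.45 at day 5 over day 3, a call kept under each of the 8 alternative settings, and EIF3D was called at -0.34 there, but stood at -0.23 by TPM and -0.25 in exon-exon reads. EIF4EBP1, the inhibitor of the cap-binding protein, was called at 0.42 at day 3 over day 0 and -0.28 at day 5 over day 3, and both were lost with trends removed (0.24 and -0.12). EIF4A3, the helicase of the exon junction complex, was called at -0.36 at day 5 over day 3 and stood at -0.24 by TPM. The eIF2B subunits had medians of 0.09, -0.09 and -0.19, and the difference between the lists was not tested.

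EIF2B4 had the widest range of the members over the 3 libraries, 0.32 on the log2 scale, and EIF2AK4 the narrowest, 0.05. The 3 protein-coding genes whose pair of ratios at day 3 and day 5 over day 0 lay nearest to those of EIF2B4 were CTSZ, PUSL1 and AP2M1, at Euclidean distances of 0.0048, 0.0078 and 0.012. Such likeness over 3 libraries was common, since 424 of 7422 genes compared (5.71%) lay within 0.1 of EIF2B4. Shares of reads that span a junction were lower at day 5 for 2 subunits of eIF2B beyond counting error. In EIF2B2 the exact interval of this share of exon reads was 78.2% to 81.3% at day 5, against 83.1% to 86.0% at day 0, and in EIF2B4 it was 82.8% to 87.4% at day 5, against 87.8% to 91.9% at day 0. Over the whole libraries this share was 64.5%, 65.4% and 61.8% at day 0, 3 and 5, so it was also lowest at day 5 across all genes.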

How the data were processed

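Gene tables of 3 RNA-seq libraries, 1 per time, were used. RNAiso Plus served for RNA extraction and a SMARTer kit for mRNA libraries, per the labels' protocols. Per the file headers, the deposited tables hold read counts per gene (unique, total, exon, exon-exon and intron reads) and the authors' TPM values. The aligner and counter were not given in the sources used here, nor was the use of strand. Identifiers are human, 58243 in all, although the only build in the submitters' processing notes is the mouse build mm10. Of these, 57980 are in GENCODE 29 and 56577 match its start and end (GRCh38), as do 9 of the 10 members. EIF2B5 is given as in the files. The 3 columns of a series-wide table were left out.

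TMM factors (1.01, 0.968 and 1.02 at day 0, 3 and 5) came from edgeR 4.0.16 in R 4.3.3, and no count test was run for lack of replicates. A prior count of 0.5 was added. A count of 3 reads corresponds to 0.139, 0.140 and 0.114 CPM. No molecular identifiers are named in the labels, so floors and intervals hold counting error alone. Other tools were matplotlib 3.10.9, numpy 2.4.6, scipy 1.17.1, pandas 2.3.3 and statsmodels 0.14.6 in Python 3.11.15. Trends on exon length and GC content of GENCODE 29 transcripts were removed by lowess (span 0.3, 3 rounds). The ratios, calls and trend removal were tested on simulated data.

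The members and gene lists were chosen with earlier results of these data known. The text names all members, SYVN1, EIF2AK3, and up to 4 genes per list with the largest ratios among those called in any comparison. EIF2S2 and EIF2S3 were named outside that rule, after their values were seen, as the partners of EIF2S1. Values of ATF5 were also given outside that rule, after they were seen. Alternatives were a prior count of 5, exon reads, unique reads, scaling by library totals or by size factors from DESeq2 1.42.0, TPM (pseudocount 0.5), removal of trends, a minimum of 10 reads or none, and a fold of 1.5. Exon-exon reads and principal transcript lengths were added after seeing the data.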

Additional observations from a re-analysis of the deposited data

How the results depend on the processing

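With 1 library per time, no replicate could be left out and no variation between cultures measured, and calls near 1.2-fold depend on the processing. The count of members called at day 3 over day 0, 1 as reported, was 0 by library totals, by the authors' TPM, with trends removed and at 1.5-fold, and 2 by uniquely placed and by exon-exon reads. At day 5 over day 0 it was 0 as reported and 1 by uniquely placed reads. At day 5 over day 3 it was 2 as reported, 1 by uniquely placed reads, and 0 with trends removed and at 1.5-fold. The medians of the members' interval bounds were -0.069 and 0.080 at day 3 over day 0, and -0.096 and 0.043 at day 5 over day 3. These are not an interval of the median itself. The members' median log2 ratio moved outside them to -0.13 at day 3 over day 0 by TPM. At day 5 over day 3 it moved outside them to 0.049 by library totals and 0.058 by TPM. The order of levels had a mean Spearman correlation of 0.830 with that per principal transcript length. Called ratios whose sign turned were, at day 5 over day 3, PPP1R15B (-0.026), OMA1 (-0.19) and IRF9 (0.22) in uniquely placed reads and OMA1 (-0.014) in exon-exon reads. At day 5 over day 0, DDIT3 (-0.037) turned in exon-exon reads. The intervals of all these alternative values included 0, so an opposite direction was not shown. The causes were not tested. Of 240 values of single members under 8 alternatives, 205 stayed within the reported interval and the rest left it. Of values whose reported interval excluded 0, 7 changed sign, among them PPP1R15B at day 5 over day 0 in uniquely placed (-0.37) and exon-exon reads (-0.21). DESeq2 size factors, exon reads and a prior count of 5 moved 0 of 30 each.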
